A study of Mus musculus with 12 samples.

Results

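This account covers 33 enzyme genes of central carbon metabolism in mouse small bowel: 16 of glycolysis and lactate formation, 4 of the pyruvate dehydrogenase complex and 13 of the citrate cycle. Each member is a gene symbol looked up in the symbol column of the deposited count files. All 33 were found, each with 1 entry, among the 35791 genes listed, and all 33 passed the filter on low counts that left 13154 genes for testing. Dld, the dihydrolipoyl dehydrogenase shared by the pyruvate and 2-oxoglutarate dehydrogenase complexes, was placed with pyruvate dehydrogenase. Mdh1, the cytosolic malate dehydrogenase, was counted with the citrate cycle.

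The study asked how the bowel left after ileocecal resection, which removes the end of the ileum and the cecum, adapts, and what the milk sugar 2'-fucosyllactose (2'-FL) adds. It sequenced 12 small-bowel libraries from male C57BL/6 mice that were 8 to 10 weeks old, in 4 groups of 3. Pre control libraries were labelled as taken before resection in mice without 2'-FL and Pre 2'-FL libraries as taken before it in the 2'-FL arm. Post control libraries came from mice without the supplement, and Post 2'-FL libraries from mice given 2.5 g/L of it from day 0, the day of resection. The same 2.5 g/L is listed for the Pre 2'-FL libraries. Whether those mice had received any before collection is not settled. The labels name a liquid diet at day 7, followed by chow, alike for every group. The protocol text sets tissue collection for every mouse at 8 weeks after surgery, yet 6 libraries carry a Pre label; the library titles decided the group here. Neither the bowel segment nor the time of day is given, nor whether equal numbers stand for 1 mouse. Before and after resection thus cannot be told apart from a difference in segment, time of day, age at collection or time on the diet. Nor can resection be told apart from surgery as such, since none of the 4 groups is labelled as operated without resection. Nothing in the labels says that the 3 libraries of a group came from separate mice, so p-values measure only the spread between these libraries. In such bulk tissue, fewer cells of a type and less RNA per cell cannot be told apart.

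Glycolysis splits glucose to pyruvate in the cytosol, with hexokinase and phosphofructokinase among its regulated steps. Phosphoglycerate kinase and pyruvate kinase are the steps that form ATP. Lactate dehydrogenase reduces pyruvate to lactate, while pyruvate dehydrogenase carries it into the mitochondrion's citrate cycle as acetyl-CoA. Enterocytes are known to make lactate from glucose and to burn glutamine, which enters the cycle at 2-oxoglutarate.

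Promoter sequence is shown for 3 members on which the values below turn: Pgk1 and Fh1, the members that rose in the 2'-FL arm both with and without a correction for transcript length, and Ldha, the most abundant member per length. Each is the 250 bases before a start listed for the gene in RefSeq, build GRCm38.p6, written 5′ to 3′ on the gene's strand. Capitals mark every match to ACGTG on either strand, the core of the element bound by hypoxia-inducible factors. The palindrome CACGTG holds that core on both strands and counts as 2 matches. The Pgk1 window (chrX:106186850-106187099, plus strand) held 2 matches, the Ldha window (chr7:46845554-46845803, plus strand, 1 of 2 windows listed for the gene and inside the gene's RefSeq span of chr7:46842274-46855627) held 5, and the Fh1 window (chr1:175625636-175625885, minus strand) held 0.
Pgk1: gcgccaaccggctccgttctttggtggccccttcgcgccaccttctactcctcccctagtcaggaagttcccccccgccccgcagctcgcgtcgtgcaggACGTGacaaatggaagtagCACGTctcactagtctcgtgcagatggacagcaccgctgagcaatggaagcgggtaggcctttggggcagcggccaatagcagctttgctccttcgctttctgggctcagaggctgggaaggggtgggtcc
Ldha: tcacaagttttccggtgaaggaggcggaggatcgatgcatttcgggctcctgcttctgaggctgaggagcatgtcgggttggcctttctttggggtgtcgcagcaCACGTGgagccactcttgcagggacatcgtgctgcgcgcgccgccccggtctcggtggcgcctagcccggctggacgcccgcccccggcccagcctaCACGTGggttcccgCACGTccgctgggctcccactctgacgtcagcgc
Fh1: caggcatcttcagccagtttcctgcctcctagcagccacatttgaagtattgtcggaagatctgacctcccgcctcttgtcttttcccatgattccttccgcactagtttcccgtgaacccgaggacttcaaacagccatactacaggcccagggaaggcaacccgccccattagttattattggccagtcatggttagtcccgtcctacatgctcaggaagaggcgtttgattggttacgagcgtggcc
A window was listed for 32 of the 33 members. ACGTG stood in 7 of 16 glycolysis members (Hk2, Pfkm, Aldoa, Pgk1, Pgam1, Pkm and Ldha), in 1 of 4 pyruvate dehydrogenase members (Pdhb) and in 3 of 12 citrate cycle members (Idh3g, Ogdh and Mdh1). Over all 27025 genes with a window the share was 18.5%, and over the tested genes with a window it was 24.5%. The GC box GGGCGG, searched on both strands, stood in 9 of 16 glycolysis and 9 of 12 citrate cycle members, against 62.2% of tested genes. These are matches of letters in a window and not sites shown to be bound.

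Library totals ran from 5663275 to 9385266 counts. Scaled to these plain totals, 1 count was worth between 0.107 and 0.177 CPM. The CPM values below use TMM-scaled library sizes instead, on which the 6 counts of Hk1 in Post 2'-FL 1 stood at 1.14 CPM. Levels in most libraries went with transcript length. Taken over genes (no independent replicates), the rank correlation (Spearman's rho) of length with a gene's level relative to its own mean was 0.26 to 0.50 in the 6 Pre libraries, -0.21 to 0.35 among the Post control libraries and -0.60 to -0.44 among those of Post 2'-FL. Since this trend differed between the Post groups, 2'-FL cannot be told apart there from a difference in the libraries themselves. Changes are given as tested unless called corrected. Corrected means after fitted trends with transcript length and GC content had been taken out of each library. The correction may also remove real change that goes with length or GC content. The median change over all genes tested was -0.05 in the control arm, -0.13 in the 2'-FL arm and 0.02 between the Post groups on the log2 scale. Enterocyte markers (8 genes) summed to 26271 to 41412 CPM in Pre control, 17009 to 35955 in Pre 2'-FL, 40150 to 57064 in Post control and 62363 to 68811 in Post 2'-FL, so the labelled tissue carries its defining genes. Of the 5 pancreas acinar markers, Prss1, Cpa1, Pnlip and Cel were at 0 in every library, and Cela1 stood at 4.84 to 5.93 CPM in the Pre libraries, 7.32 to 17.0 in Post control and 17.7 to 23.1 in Post 2'-FL, passing as higher in both arms and between the Post groups.

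The 33 members spanned a wide range of levels. As mean CPM per kilobase of transcript over all 12 libraries, Ldha (lactate dehydrogenase A) stood highest at 883, followed by Gapdh (glyceraldehyde-3-phosphate dehydrogenase) at 821 and Mdh2 (mitochondrial malate dehydrogenase) at 736. In the 6 Pre libraries the per-kilobase levels of these genes were 748 ± 83.4, 736 ± 134 and 577 ± 118, and the ranges of mean ± SD of neighbours in this order overlapped. Mdh1 at 543 and Tpi1 at 515 came next in CPM per kilobase. At the bottom were Ldhb at 5.87, Hk2 at 3.90, Hk1 at 2.25 and Pfkm at 2.21 in the same unit. Paired isozymes were far apart: per kilobase, Pfkp, the platelet-type phosphofructokinase, exceeded the liver type Pfkl by 6.92 to 8.29 times and the muscle type Pfkm by 18.0 to 36.7 times in Pre control. Ldha exceeded Ldhb by 115 to 161 times in those libraries.

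**Figure D1:**
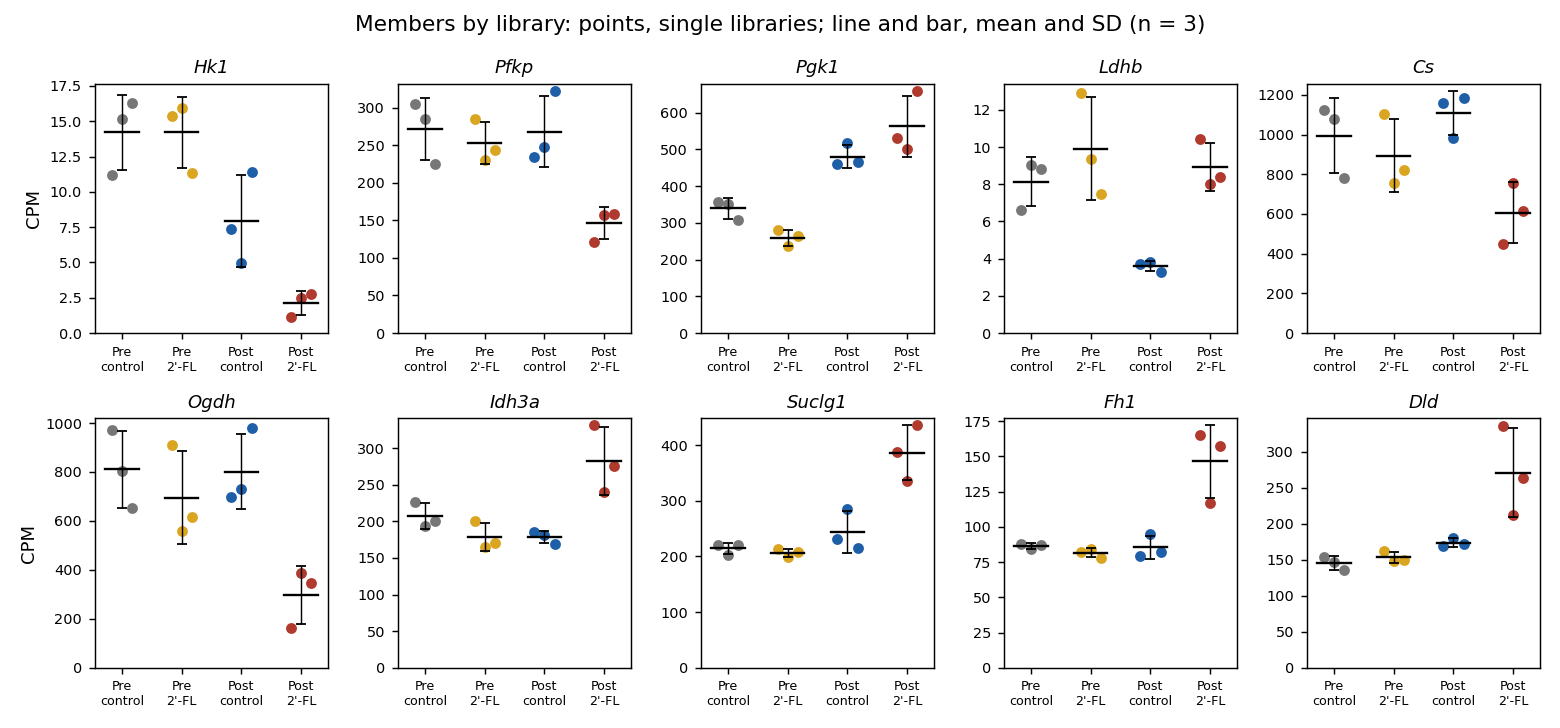
CPM (TMM-scaled) of single members in the 12 libraries, 1 panel per gene with its own axis from 0; points are libraries, and the line and bar are the mean and SD of 3. Hk1 in Post 2'-FL (1.14 to 2.79 CPM) lies below every other library, and Fh1 in Post 2'-FL (117 to 165 CPM) above every other library.

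After resection few members passed the test in the control arm, and in the 2'-FL arm members passed in both directions. In the control arm 1 of 33 members passed the test, Ldhb, which fell, while 10.8% of all tested genes passed, 4.42% higher and 6.33% lower. With the correction Ldhb and Idh2 fell, 2 of 33, against 12.6% of all genes, 7.6% higher and 5% lower. In the 2'-FL arm 17 of 33 passed (51.5%), near the 55.3% of all genes, of which 25.3% rose and 30% fell. Among the members 12 rose (Tpi1, Pgk1, Pgam1, Ldha, Dld, Idh3a, Idh3b, Suclg1, Sucla2, Fh1, Mdh1 and Mdh2) and 5 fell (Hk1, Hk2, Pfkl, Pfkp and Ogdh). Corrected, 6 of 33 passed (18.2%), against 35.9% of all genes, 21.1% higher and 14.8% lower: Pgk1, Pklr and Fh1 rose, and Hk1, Ldhb and Pdhb fell. Over both arms together 18 of 33 passed as tested, 10 higher and 8 lower, beside 56.4% of all genes, 25.3% higher and 31.1% lower. Corrected, 10 passed, 6 higher and 4 lower, beside 43.4% of all genes, 24.9% higher and 18.5% lower. The CPM of the single libraries did not overlap between Pre and Post for 15 members in the control arm and 18 in the 2'-FL arm, where the shares of all genes were 34.9% and 61.6%, and for 4 members over both arms (17% of all genes).

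By branch, in the 2'-FL arm 4 of the 16 glycolysis members rose and 4 fell (median log2 change -0.08). Of the 13 citrate cycle members 7 rose and 1 fell in that arm (median 0.51). These counts stand beside 25.3% of all genes higher and 30% lower, and the difference between the branches was not tested. In the corrected values of the 2'-FL arm 2 glycolysis members rose and 2 fell (median -0.02). There 1 citrate cycle member rose (median 0.06), beside 21.1% and 14.8% of all genes. The control arm had medians of 0.11 for glycolysis and 0.06 for the cycle. The median enterocyte marker sum went from 20638 to 67824 CPM in the 2'-FL arm, with 2 of its 8 genes called higher and 2 lower, and from 34925 to 55214 CPM in the control arm, where no cycle member passed as tested. Between the Post groups 1 enterocyte gene was higher with 2'-FL and 3 were lower. The median sum of 5 general epithelium markers went from 6254 to 6579 CPM in the 2'-FL arm, with 0 genes called higher and 1 lower. In the control arm that sum went from 10034.5 to 11567 CPM, with 0 called. Between the Post groups 0 of these 5 were higher with 2'-FL and 2 were lower. The part of either list in these results was not tested.

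**Figure D2:**
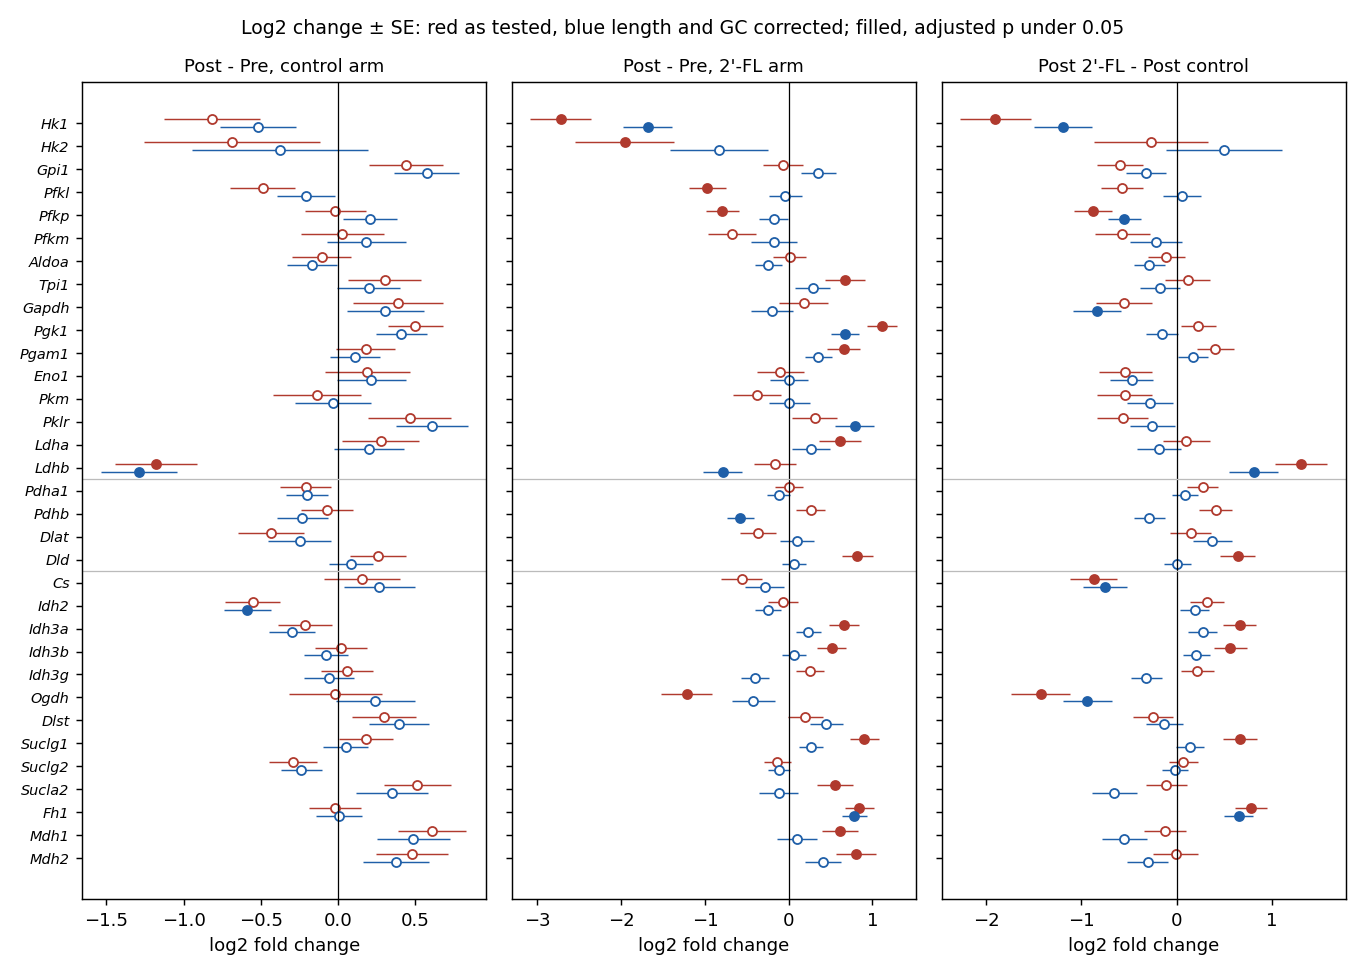
log2 change of each of the 33 members after against before resection in the control arm and in the 2'-FL arm, and in Post 2'-FL against Post control, as tested and corrected; filled points have an adjusted p under 0.05 and bars are 1 standard error. Hk1 has the lowest value in the 2'-FL arm (-2.72) and Pgk1 the highest (1.12) as tested.

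Hexokinase traps glucose in the cell as glucose-6-phosphate, and Hk1 gave the largest change of any member in the 2'-FL arm, as tested and corrected. In libraries 1 to 3 of each group, the order used throughout, Hk1 stood at 11.2, 15.1 and 16.3 CPM in Pre control, 15.3, 15.9 and 11.4 in Pre 2'-FL, 7.40, 4.94 and 11.4 in Post control, then 1.14, 2.46 and 2.79 in Post 2'-FL. Post 2'-FL lay below all other libraries, while Post control overlapped the Pre groups. In the 2'-FL arm Hk1 fell by 2.72 on the log2 scale (SE 0.37, adjusted p 6.52e-05), and by 1.68 when corrected (adjusted p 0.000912). In the control arm its change was -0.82 (SE 0.31, adjusted p 0.0984), or -0.51 corrected (adjusted p 0.169), short of the threshold. After resection Hk1 was lower with 2'-FL than without, at -1.90 (SE 0.37, adjusted p 0.00171), or -1.19 corrected (adjusted p 0.0161). Its lowest library held 6 counts, and the corrected call between the Post groups was lost without Post control 3 or Post 2'-FL 1 (highest adjusted p 0.0766). Neuron and glia markers, 6 of 7 of them tested, summed to 14 to 27 CPM in Pre control, 23 to 28 in Pre 2'-FL, 5 to 8 in Post control and 7 to 10 in Post 2'-FL. With none of the 7 at 0 in every library, that list had 4 genes lower in the 2'-FL arm and 3 in the control arm, while 1 of them was higher in Post 2'-FL than in Post control. Endothelium markers, 6 genes with none at 0 throughout, summed to 21 to 107, 61 to 133, 21 to 34 and 14 to 22 CPM in the same order of groups, with 6 of 6 lower in the 2'-FL arm, 1 lower in the control arm and 1 lower in Post 2'-FL than in Post control. The part of either list in the Hk1 result was not tested.

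Hk2, the insulin- and hypoxia-inducible hexokinase, varied within groups. Its libraries held 20.0, 20.5 and 21.8 CPM in Pre control, 13.5, 83.0 and 29.0 in Pre 2'-FL, 5.24, 8.77 and 23.8 in Post control, then 15.0, 6.47 and 11.0 in Post 2'-FL. A single library, Pre 2'-FL 2 at 83.0 CPM, stood far above the rest, and the Pre 2'-FL and Post 2'-FL groups overlapped. Hk2 fell in the 2'-FL arm by 1.96 on the log2 scale (SE 0.59, adjusted p 0.0121), but the value without Pre 2'-FL 2 was -0.90 (adjusted p 0.160) and the corrected value -0.83 (adjusted p 0.28). Between the Post groups Hk2 differed by -0.27 (SE 0.60, adjusted p 0.751), with the opposite sign when corrected (0.50).

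Phosphofructokinase adds the second phosphate and commits the sugar to glycolysis. Pfkp, its most abundant form here, had 304, 284 and 225 CPM in Pre control, 285, 231 and 243 in Pre 2'-FL, 235, 248 and 322 in Post control, then 122, 158 and 159 in Post 2'-FL. The 3 Post 2'-FL libraries lay below the other 9. Pfkp fell in the 2'-FL arm by 0.79 on the log2 scale (SE 0.20, adjusted p 0.00408) and was lower in Post 2'-FL than in Post control at -0.88 (SE 0.20, adjusted p 0.00398). Corrected, the first of these values was -0.18 (adjusted p 0.44) and the second -0.55 (adjusted p 0.0387). The second call was lost when any 1 of the 6 Post libraries was left out of the corrected fit (adjusted p up to 0.144).

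Pfkl, the liver form, stood at 33.1, 32.0 and 29.2 CPM in Pre control, 30.0, 26.6 and 32.0 in Pre 2'-FL, 20.2, 26.1 and 21.0 in Post control, then 10.4, 14.8 and 19.9 in Post 2'-FL. Post 2'-FL lay below the Pre libraries and below Post control. It fell in the 2'-FL arm by 0.97 on the log2 scale (SE 0.22, adjusted p 0.00199), a change that was -0.04 when corrected (adjusted p 0.892). In the control arm Pfkl changed by -0.49 (SE 0.21, adjusted p 0.141). Pfkm ran from 3.70 to 8.68 CPM and passed in neither arm nor between the Post groups. Pfkm overlaps the tested gene Senp1 and Pfkp the gene Pitrm1, and since strand is not given in the sources used here, reads of such partners cannot be told apart.

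Of the enzymes that isomerise and cleave the sugar, Gpi1 (glucose-6-phosphate isomerase) and Aldoa (aldolase A) passed in neither arm, with log2 changes of -0.07 and 0.01 in the 2'-FL arm that were 0.35 and -0.24 when corrected. Over both arms together the corrected change of Gpi1 passed at 0.46 (adjusted p 0.0215), a call lost without Post control 2, without Post 2'-FL 3 and without Pre 2'-FL 2, while as tested it was 0.19 (SE 0.17, adjusted p 0.362). Tpi1, which interconverts the triose phosphates, had 787, 766 and 699 CPM in Pre control, 712, 495 and 682 in Pre 2'-FL, 880.4, 1143 and 756 in Post control, then 831, 906 and 1278 in Post 2'-FL. Post 2'-FL lay above Pre 2'-FL, and Post control overlapped Pre control. Tpi1 rose in the 2'-FL arm by 0.68 (SE 0.24, adjusted p 0.0263). The call did not hold when corrected (0.29, adjusted p 0.291) nor without Pre 2'-FL 2 or Post 2'-FL 3. Tpi1 overlaps Spsb2, which averaged 16.9 CPM.

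Gapdh, often used as a reference gene, was not level between libraries. It stood at 1260.3, 1039 and 1201 CPM in Pre control, 1106, 747 and 915 in Pre 2'-FL, 1349, 1770.3 and 1469.9 in Post control, then 577, 1089.7 and 1464 in Post 2'-FL. The Post control libraries lay above the Pre control libraries, while Post 2'-FL spread from below all Pre libraries to above them. Its log2 change was 0.39 (SE 0.29, adjusted p 0.386) in the control arm and 0.18 (SE 0.29, adjusted p 0.623) in the 2'-FL arm, with the opposite sign when corrected (-0.20). Between the Post groups it was -0.55 (SE 0.29, adjusted p 0.15) as tested and -0.84 (adjusted p 0.0305) when corrected, a call lost without Post control 2, Post control 3 or Post 2'-FL 1. Its counts were fractional in all 12 libraries.

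Pgk1, phosphoglycerate kinase, whose promoter is shown above, gave the largest rise among the members in the 2'-FL arm as tested, while in the corrected fit Pklr (0.79) and Fh1 (0.79) stood above it. The libraries held 357, 352 and 307 CPM in Pre control, 279, 236 and 264 in Pre 2'-FL, 459, 517 and 465 in Post control, then 529.9, 502 and 658 in Post 2'-FL. Both Post groups lay above both Pre groups with no overlap. Pre 2'-FL lay below Pre control, a difference of -0.38 on the log2 scale (SE 0.18) that did not pass. Pgk1 rose in the 2'-FL arm by 1.12 (SE 0.18, adjusted p 0.000215), and by 0.67 when corrected (adjusted p 0.00712). The control arm gave 0.50 (SE 0.18, adjusted p 0.0817), which missed the threshold, and the Post groups differed by 0.23 (adjusted p 0.331). In the 2'-FL arm its call held in all 14 alternatives tried and in the corrected fit without any 1 library.

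Pgam1, phosphoglycerate mutase, rose in the 2'-FL arm from 262 ± 27.2 to 413 ± 65.2 CPM (mean ± SD, n = 3). Its log2 change was 0.65 (SE 0.19, adjusted p 0.00999), and 0.35 when corrected (adjusted p 0.1). The value without Post 2'-FL 3 had an adjusted p of 0.0504. Eno1, enolase, ran from 204 to 540 CPM and changed by 0.19 and -0.10 in the control and 2'-FL arms (0.22 and 0.00 corrected), neither past the threshold.

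Pyruvate kinase closes glycolysis and has a gene for the form of most tissues, Pkm, and 1 for the liver and red cell forms, Pklr. Pkm had 873, 661 and 745 CPM in Pre control, 842, 432 and 579 in Pre 2'-FL, 625, 614 and 841 in Post control, then 319, 468 and 639 in Post 2'-FL, with overlap between all groups compared. It did not pass, with log2 changes of -0.13 (SE 0.29, adjusted p 0.783) in the control arm, -0.38 (SE 0.29, adjusted p 0.274) in the 2'-FL arm and -0.55 (SE 0.29, adjusted p 0.146) between the Post groups. The corrected 2'-FL arm value was 0.01.

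The 2 pyruvate kinase genes did not keep the same ratio. Per kilobase, Pkm stood above Pklr by 3.03 to 3.68 times in Pre control and 2.94 to 4.62 times in Pre 2'-FL. In Post control the ratio was 1.82 to 2.64, and in Post 2'-FL 2.05 to 2.37. All 6 Post libraries thus lay below all 6 Pre libraries, a description with no test. Pklr itself had 283, 238 and 293 CPM in Pre control, 287, 175 and 149.6 in Pre 2'-FL, 283, 402 and 440.0 in Post control, then 186, 253 and 322 in Post 2'-FL. Its groups overlapped, and of the 2 arms and the Post comparison its change passed only in the corrected 2'-FL arm (0.79, adjusted p 0.0179, against 0.31 as tested), a call lost without Post 2'-FL 3 or without the second or the third Pre 2'-FL library. Over both arms together the corrected change of Pklr was 0.70 (adjusted p 0.00411) and kept its call without any 1 library, beside 0.39 (SE 0.19, adjusted p 0.0931) as tested.

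Ldha, the lactate dehydrogenase subunit that favours lactate formation, stood at 1479, 1525 and 1403 CPM in Pre control, 1369, 1111 and 1263 in Pre 2'-FL, 1629, 2165 and 1553 in Post control, then 1344, 1880.1 and 2515 in Post 2'-FL. Its Post control libraries were above its Pre control libraries, and Post 2'-FL overlapped Pre 2'-FL. The log2 change was 0.28 (SE 0.25, adjusted p 0.474) in the control arm and 0.62 (SE 0.25, adjusted p 0.0489) in the 2'-FL arm. The call in the 2'-FL arm was lost when corrected (0.27, adjusted p 0.372) and without any of the libraries numbered 2 or 3 in the arm. Between the Post groups Ldha differed by 0.10 (SE 0.25, adjusted p 0.772), and by -0.19 when corrected.

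Ldhb, the subunit that favours lactate use, was the scarce partner and the only member to pass in the control arm as tested. Its libraries held 6.61, 9.04 and 8.80 CPM in Pre control, 12.9, 9.38 and 7.45 in Pre 2'-FL, 3.70, 3.84 and 3.31 in Post control, then 10.4, 8.01 and 8.37 in Post 2'-FL. Post control lay below every other library, and Post 2'-FL overlapped Pre 2'-FL. Ldhb fell in the control arm by 1.18 on the log2 scale (SE 0.27, adjusted p 0.0169), and by 1.29 when corrected (adjusted p 0.00748). As tested, that call was lost without Pre control 2, Pre control 3, Post control 1 or Post control 2, with adjusted p up to 0.0606, while the corrected call held without any 1 library.

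In the 2'-FL arm Ldhb changed by -0.16 (SE 0.25, adjusted p 0.604) as tested and by -0.79 when corrected (adjusted p 0.0186), a call lost without Pre 2'-FL 1 or Post 2'-FL 3. Over both arms together Ldhb was lower at -0.67 (SE 0.18, adjusted p 0.00675), or -1.04 corrected (adjusted p 0.000417). Without any 1 library the corrected call over both arms held. Post 2'-FL exceeded Post control by 1.31 (SE 0.27, adjusted p 0.00244), or 0.81 corrected (adjusted p 0.0361). The corrected call was lost without any 1 Post library other than Post 2'-FL 2 (adjusted p up to 0.131). The interaction for Ldhb, which subtracts the control arm's change from that of the supplemented arm, was 1.02 (SE 0.37, adjusted p 0.0718), or 0.50 corrected (adjusted p 0.433).

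Sums of 5 marker lists had their lowest library in Post control, where Ldhb was lowest. These lists are given here for that reason, so the match to Ldhb follows from the choice. Every other marker list had its lowest library in another group. Paneth cell markers, 4 genes with none at 0 throughout, summed to 17024 to 29689.5 CPM in Pre control, 10005 to 31797 in Pre 2'-FL, 5092 to 6871 in Post control and 10790.2 to 26701 in Post 2'-FL. Post control thus lay below every other library, and 4 of 4 genes were lower in the control arm and 4 of 4 higher in Post 2'-FL than in Post control. Smooth muscle markers, all 7 of them tested and none at 0 in every library, summed to 890 to 1181 CPM in Pre control, 745 to 1740 in Pre 2'-FL, 517 to 806 in Post control and 1309 to 1559 in Post 2'-FL, with 1 of 7 genes lower in the control arm and 3 higher in Post 2'-FL than in Post control. Myeloid markers, 5 genes with none at 0 throughout, summed to 256 to 414, 230 to 388, 117 to 157 and 177 to 510 CPM in the same order of groups, with 2 lower in the control arm and, between the Post groups, 1 higher and 1 lower. Red blood cell markers, 4 genes with none at 0 throughout, summed to 35 to 164, 156 to 215, 12 to 58 and 78 to 220 CPM, with 3 lower in the control arm and 3 higher in Post 2'-FL than in Post control. The fifth list is that of neuron and glia, given above with Hk1. The part of these lists in the Ldhb result was not tested.

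Pyruvate dehydrogenase is the gate from glycolysis to the citrate cycle, and 3 of its 4 members, the E1 subunits Pdha1 and Pdhb and the E2 core Dlat, passed in neither arm as tested. Over both arms together Dlat was lower, at -0.40 (SE 0.15, adjusted p 0.0361), a call lost when corrected (-0.07, adjusted p 0.706) and without any 1 of 9 of the 12 libraries. Pdha1 overlaps Map3k15, and its counts were fractional in all 12 libraries. Pdhb was lower in the corrected 2'-FL arm (-0.58, adjusted p 0.0147), where the value as tested was 0.26 (adjusted p 0.204) and its Post 2'-FL libraries, at 69.4 to 85.6 CPM, lay above those of Pre 2'-FL, at 65.5 to 65.9. The direction for Pdhb thus differed between the 2 fits, and the corrected call was lost without Post 2'-FL 1. Over both arms together the corrected change of Pdhb was -0.40 (adjusted p 0.0126), a call kept without any 1 library. As tested it was 0.10 (SE 0.12, adjusted p 0.507).

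Dld, the shared E3 subunit, had 153, 147 and 135 CPM in Pre control, 162, 149 and 149.8 in Pre 2'-FL, 169, 181 and 172 in Post control, then 336, 213 and 264 in Post 2'-FL. Post 2'-FL lay above the other groups, with the highest value in Post 2'-FL 1. It rose in the 2'-FL arm by 0.82 (SE 0.18, adjusted p 0.00179) and was higher in Post 2'-FL than in Post control by 0.64 (SE 0.18, adjusted p 0.0133). Corrected, these values were 0.06 and 0.01, with adjusted p of 0.755 and 0.972.

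Citrate synthase, Cs, condenses acetyl-CoA with oxaloacetate and opens the cycle. Its libraries held 1126, 1079.5 and 779.7 CPM in Pre control, 1101, 756 and 823 in Pre 2'-FL, 1159, 982 and 1183 in Post control, then 448, 754 and 617 in Post 2'-FL. All 3 Post 2'-FL libraries lay below all Post control libraries and, at 754 at most, just below the lowest Pre 2'-FL library at 756. Cs was lower in Post 2'-FL than in Post control, at -0.87 (SE 0.25, adjusted p 0.0133), and at -0.75 when corrected (adjusted p 0.0342). The call was lost without Post control 1, Post control 3 or Post 2'-FL 1 as tested, and in 5 of the 6 fits that left out a library when corrected. Against Pre, Cs changed by 0.16 (SE 0.24, adjusted p 0.697) in the control arm and by -0.56 (SE 0.25, adjusted p 0.066) in the 2'-FL arm, or 0.27 and -0.29 corrected.

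Isocitrate dehydrogenase comes as the NADP form Idh2 and the NAD form built from Idh3a, Idh3b and Idh3g. Idh2 had 56.4, 54.4 and 75.2 CPM in Pre control, 49.8, 55.9 and 60.0 in Pre 2'-FL, 37.4, 43.9 and 45.6 in Post control, then 48.3, 51.6 and 58.2 in Post 2'-FL, and Post control lay below Pre control. Its control arm change was -0.55 (SE 0.18, adjusted p 0.0596) as tested and -0.59 (adjusted p 0.0254) when corrected, the latter lost without Pre control 3, Post control 1 or Post control 2. In the 2'-FL arm it was -0.07 (SE 0.18, adjusted p 0.763), or -0.25 corrected (adjusted p 0.215). Over both arms together Idh2 was lower at -0.31 (SE 0.13, adjusted p 0.0484), or -0.42 corrected (adjusted p 0.00695). That corrected call held without any 1 library.

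Idh3a, the catalytic subunit, held 227, 194 and 201 CPM in Pre control, 199.9, 165 and 171 in Pre 2'-FL, 186, 181 and 169 in Post control, then 332, 240.1 and 276 in Post 2'-FL. Post 2'-FL lay above the other 9 libraries, and Post control below Pre control. Idh3a rose in the 2'-FL arm by 0.66 (SE 0.18, adjusted p 0.00566), and Post 2'-FL exceeded Post control by 0.66 (SE 0.18, adjusted p 0.00933). The corrected values were 0.23 (adjusted p 0.237) and 0.27 (adjusted p 0.201). Its counts were fractional in all 12 libraries.

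Idh3b, a regulatory subunit, had 143, 136 and 143 CPM in Pre control, 149, 135 and 160.3 in Pre 2'-FL, 133, 162 and 134 in Post control, then 228, 179 and 228 in Post 2'-FL, with Post 2'-FL above every other library. It rose by 0.51 (SE 0.17, adjusted p 0.0192) in the 2'-FL arm and was 0.56 higher in Post 2'-FL than in Post control (SE 0.17, adjusted p 0.0174). Both calls were lost when corrected (0.06 and 0.20) and without Post 2'-FL 3. Idh3b overlaps Nop56, at a mean of 34.8 CPM. Idh3g, the other regulatory subunit, passed in neither arm, at 0.26 in the 2'-FL arm and -0.40 corrected.

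The 2-oxoglutarate dehydrogenase complex pairs the E1 enzyme Ogdh with the E2 core Dlst, and the 2 genes parted in Post 2'-FL. Ogdh stood at 973, 803 and 655 CPM in Pre control, 910.5, 559 and 617 in Pre 2'-FL, 698, 728 and 978 in Post control, then 164, 388 and 345 in Post 2'-FL. Its Post 2'-FL libraries were the 3 lowest of all 12, and Post control overlapped Pre control. Ogdh fell in the 2'-FL arm by 1.22 on the log2 scale (SE 0.31, adjusted p 0.0043), and the corrected value of -0.42 (adjusted p 0.215) missed the threshold. It was lower in Post 2'-FL than in Post control at -1.42 (SE 0.31, adjusted p 0.00316), or -0.94 corrected (adjusted p 0.0224), the corrected call being lost without Post control 3 or Post 2'-FL 1. In the control arm Ogdh changed by -0.02 (SE 0.30, adjusted p 0.978).

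Dlst had 319.8, 277 and 246 CPM in Pre control, 331, 209 and 222 in Pre 2'-FL, 343, 325 and 370.0 in Post control, then 253, 296 and 325 in Post 2'-FL, with Post 2'-FL overlapping Pre 2'-FL, and passed in neither arm nor between the Post groups. Over both arms together it was 0.25 (SE 0.15, adjusted p 0.157) as tested and passed at 0.42 when corrected (adjusted p 0.0242), a call lost without Post 2'-FL 3 and without the second or the third Pre 2'-FL library. The per-kilobase ratio of Ogdh to Dlst was 1.78 to 2.04 in Pre control, 1.79 to 1.86 in Pre 2'-FL, 1.36 to 1.77 in Post control and 0.432 to 0.878 in Post 2'-FL. Transcripts of Ogdh are 4127 nt long and those of Dlst 2764 nt, and the part of the length trend in this ratio was not tested. Counts of Ogdh were fractional in every library.

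Succinyl-CoA ligase joins the subunit Suclg1 to either Sucla2, which makes ATP, or Suclg2, which makes GTP. Suclg1 had 221, 203 and 220.1 CPM in Pre control, 214, 199 and 207 in Pre 2'-FL, 232, 286 and 215 in Post control, then 388, 336 and 436 in Post 2'-FL. Post 2'-FL lay above every other library. Suclg1 rose in the 2'-FL arm by 0.90 (SE 0.18, adjusted p 0.000757) and was higher in Post 2'-FL than in Post control by 0.66 (SE 0.18, adjusted p 0.00924). Both calls were lost when corrected (0.26 and 0.14, adjusted p 0.169 and 0.503).

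Sucla2 stood at 199, 179.9 and 131 CPM in Pre control, 194, 115 and 152 in Pre 2'-FL, 243, 255 and 231 in Post control, then 204, 214 and 258 in Post 2'-FL. Post lay above Pre in both arms without overlap. It rose in the 2'-FL arm by 0.55 (SE 0.22, adjusted p 0.0431), with the opposite sign when corrected (-0.12), and the call was lost without any of the libraries numbered 2 or 3 in the arm. The control arm gave 0.52 (SE 0.22, adjusted p 0.129). Suclg2 had 79.0 to 118 CPM and passed in neither arm nor between the Post groups. Per kilobase, Sucla2 exceeded Suclg2 by 1.64 to 3.10 times over the 6 Pre libraries and by 3.24 to 4.87 times over the 6 Post libraries, again a description with no test. Transcripts of Sucla2 are 2229 nt long and those of Suclg2 3367 nt, and in the corrected fit the 2'-FL arm change was -0.12 for both. In the control arm the corrected changes were 0.35 for Sucla2 (adjusted p 0.318) and -0.24 for Suclg2 (adjusted p 0.24). The part of the length trend in this ratio was not tested.

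Fh1, fumarate hydratase, whose promoter is shown above, rose in the 2'-FL arm as tested and under all 14 alternatives run for it. Its libraries held 88.1, 84.2 and 87.5 CPM in Pre control, 82.3, 84.2 and 78.1 in Pre 2'-FL, 79.2, 94.7 and 82.4 in Post control, then 165, 117 and 158 in Post 2'-FL. The 3 Post 2'-FL libraries were the highest of the 12, and Post control overlapped Pre control. Fh1 rose in the 2'-FL arm by 0.85 (SE 0.17, adjusted p 0.000895), and by 0.79 when corrected (adjusted p 0.00153). Between the Post groups it was higher with 2'-FL by 0.78 (SE 0.17, adjusted p 0.00309), or 0.65 corrected (adjusted p 0.0108). Both calls held in all 14 alternatives and in the corrected fits without any 1 library. In the control arm Fh1 changed by -0.02 (SE 0.17, adjusted p 0.946).

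Malate dehydrogenase closes the cycle in the mitochondrion (Mdh2) and serves the malate shuttle in the cytosol (Mdh1). Mdh1 had 1124, 847 and 875 CPM in Pre control, 975, 776 and 872 in Pre 2'-FL, 1570.3, 1328 and 1452 in Post control, then 1048, 1543 and 1419 in Post 2'-FL. Post lay above Pre in both arms. Its log2 change was 0.61 (SE 0.22, adjusted p 0.0833) in the control arm and 0.61 (SE 0.22, adjusted p 0.0291) in the 2'-FL arm, the latter a call lost when corrected (0.10) and without 4 of the 6 libraries. The interaction for Mdh1 was 0.00 (SE 0.31).

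Mdh2 stood at 1073, 943 and 796 CPM in Pre control, 916, 599.7 and 713 in Pre 2'-FL, 1315, 1378 and 1229 in Post control, then 1027, 1248 and 1619 in Post 2'-FL, again with Post above Pre in both arms. It rose in the 2'-FL arm by 0.81 (SE 0.24, adjusted p 0.0102), and its control arm change was 0.48 (SE 0.24, adjusted p 0.188). The call was lost when corrected (0.41, adjusted p 0.147) and without Post 2'-FL 3 (adjusted p 0.0566). Per kilobase the ratio of Mdh1 to Mdh2 stayed between 0.601 and 0.888 over all 12 libraries.

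Comparing the bowel after resection with and without 2'-FL, 10 of 33 members passed (30.3%), against 38.1% of all genes, 18.8% higher and 19.3% lower. Ldhb, Dld, Idh3a, Idh3b, Suclg1 and Fh1 were higher with 2'-FL, and Hk1, Pfkp, Cs and Ogdh were lower. Libraries of the 2 groups did not overlap for 14 members, beside 50.7% of all genes. With the correction 7 of 33 passed (21.2%), against 21.7% of all genes, 10.3% higher and 11.4% lower: Ldhb and Fh1 were higher, and Hk1, Pfkp, Gapdh, Cs and Ogdh lower. The median over the 16 glycolysis members was -0.54 as tested and -0.24 corrected, and over the 13 citrate cycle members 0.07 and -0.13. This comparison shares the Post libraries with both arms and is not independent of them.

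Before resection 0 of 33 members passed between the arms in edgeR's test, where 0.0152% of all genes passed, and the libraries of 3 members did not overlap, beside 9.22% of all genes. At an unadjusted p under 0.05 in edgeR's test the count of members was also 0 as tested. Corrected it was 1, Pgk1, lower in Pre 2'-FL at -0.41 (unadjusted p 0.0267). DESeq2 gave 0 called. Members' log2 differences ran from -0.41 to 1.01, the latter for Hk2. The interaction passed for 3 of 33 members (9.09%), against 15.5% of all genes, 7.47% higher and 8.03% lower: Hk1 at -1.90 (SE 0.48, adjusted p 0.0217), Idh3a at 0.87 (SE 0.25, adjusted p 0.0314) and Fh1 at 0.87 (SE 0.24, adjusted p 0.0287). In the corrected fit of edgeR 0 of the 33 and 0% of all genes passed, with 3 members at an unadjusted p under 0.05, while DESeq2 without the correction called 6.

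The direction of a member's change in the 2'-FL arm followed its transcript's length as tested. The 5 members that fell have transcripts of 3730 to 5513 nt, and the 12 that rose have transcripts of 1456 to 2636 nt. Across the 33 members, which share their libraries, Spearman's rho between length and log2 change was -0.59 in the 2'-FL arm and -0.08 after correction. It was -0.28 in the control arm and -0.58 between the Post groups as tested, and -0.02 and -0.07 corrected. The median length is 2229.5 nt for the glycolysis members and 2229 nt for the citrate cycle members, against 3036.5 nt for all tested genes with a length.

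**Figure D3:**
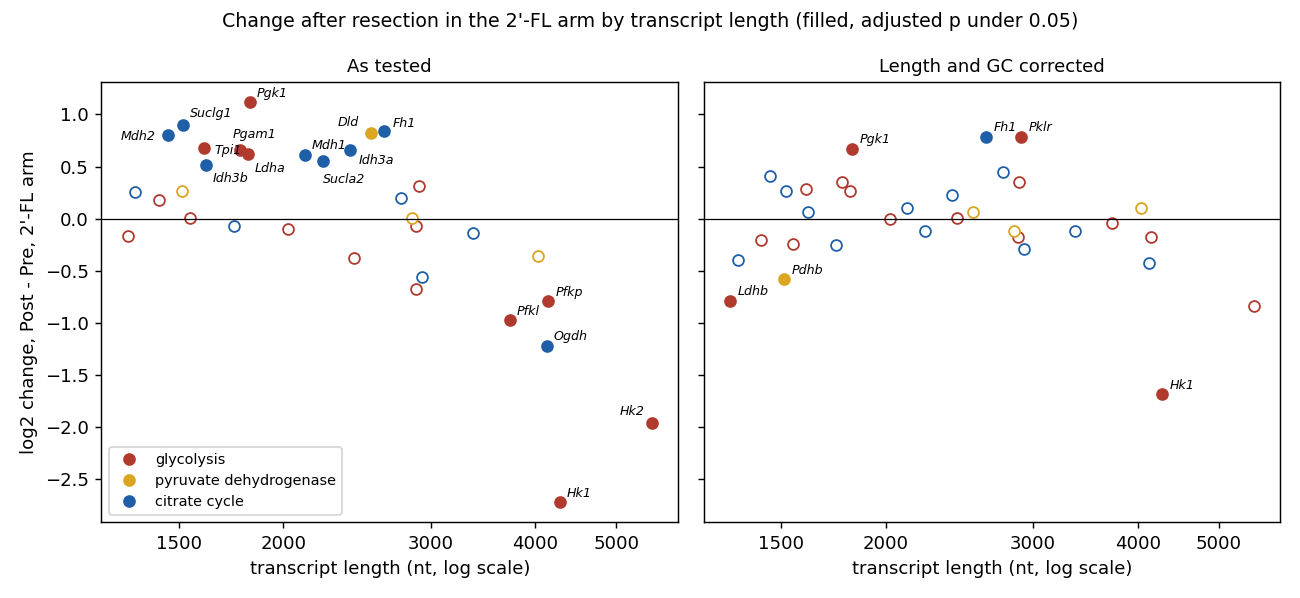
log2 change of the 33 members in the 2'-FL arm (vertical axis) against transcript length in nt (horizontal, log scale), as tested on the left and corrected on the right, coloured by branch; filled points have an adjusted p under 0.05. As tested the longest transcripts lie lowest (Hk1 at 4278 nt and Hk2 at 5513 nt), and on the right Pgk1, Pklr and Fh1 lie above and Hk1, Ldhb and Pdhb below.

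Summed over their members, the 2 branches kept a like ratio in the 4 groups. The 16 glycolysis genes summed to 6459 ± 321 CPM in Pre control, 5444 ± 864 in Pre 2'-FL, 7652 ± 919 in Post control and 6764 ± 1892 in Post 2'-FL (mean ± SD, n = 3). The 13 citrate cycle genes, cytosolic Mdh1 included, summed to 5056 ± 668, 4482 ± 752, 6136 ± 175 and 5343 ± 756 CPM in the same order. The ratio of the sums was 1.29 ± 0.126, 1.22 ± 0.0283, 1.25 ± 0.181 and 1.25 ± 0.192, so the group means differed by less than the spread between libraries of Pre control, Post control or Post 2'-FL. Together the 33 members took between 0.898% and 1.53% of the scaled counts of a library.

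**Figure D4:**
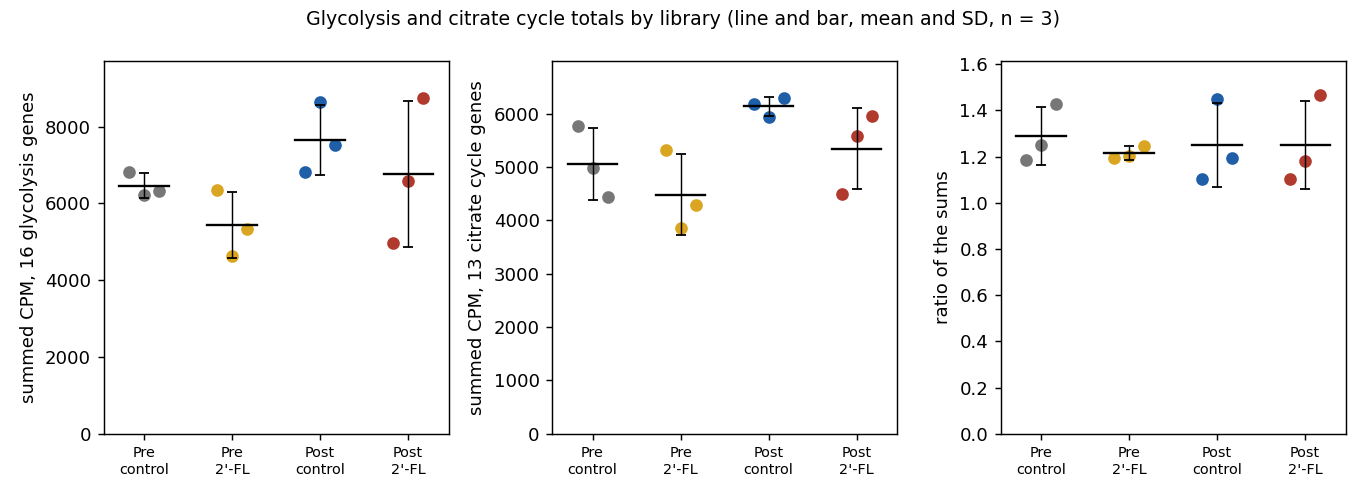
Summed CPM of the glycolysis genes (left) and of the citrate cycle genes (middle) and the ratio of the sums (right) in each of the 12 libraries by group; points are libraries, and the line and bar are the mean and SD of 3. The ratio lies between 1.10 and 1.47 in every library, and the groups overlap.

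Other genes of these pathways were taken from lists and tested in the same fit, as Post against Pre over both arms unless an arm is named. The counts stand beside 25.3% of all genes higher and 31.1% lower as tested, and 24.9% and 18.5% corrected. The list of 8 citrate cycle enzymes outside the members counted in the cytosolic Aco1 and Idh1. Of the 8 genes 4 rose and 2 fell, and corrected 4 rose and 0 fell. The succinate dehydrogenase subunits Sdhd and Sdhb rose by 1.16 (SE 0.16) and 0.91 (SE 0.14) on the log2 scale, from 318 ± 55.4 to 1109 ± 239.8 CPM and from 247 ± 22.6 to 674 ± 118 CPM in the 2'-FL arm. Idh1, the cytosolic NADP isocitrate dehydrogenase, rose by 0.89 (SE 0.15). Corrected, the changes of Sdhd, Sdhb and Idh1 were 0.61, 0.52 and 0.54. Of 11 genes that carry or convert pyruvate, citrate and malate, 4 rose and 4 fell, and corrected 5 rose and 3 fell. Mpc1 and Mpc2, the subunits of the mitochondrial pyruvate carrier, rose by 1.32 (SE 0.14) and 1.19 (SE 0.18), or 0.46 and 0.70 corrected. Mpc2 changed by 0.35 in the control arm (adjusted p 0.381) and 2.03 in the 2'-FL arm (adjusted p 6.11e-05), with an interaction of 1.68 (adjusted p 0.0162), and the interaction for Mpc1 was 1.09 (adjusted p 0.0243). The interaction also passed for Sdhd at 1.29 (adjusted p 0.0208) and Sdhb at 1.08 (adjusted p 0.0231), and corrected it passed for none of these 4 genes. Acly, the cytosolic ATP citrate lyase, changed by -1.10 as tested and -0.50 corrected.

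At the entry of sugar, 2 of 7 genes of glucose and lactate transport rose and 3 fell, and corrected 3 rose and 2 fell. Slc5a1, the apical sodium-glucose cotransporter, changed by -0.97 (-0.62 corrected), from 3125 ± 269 to 1683 ± 635 CPM in the control arm and from 2220.1 ± 629.6 to 1069 ± 134 CPM in the 2'-FL arm. Bsg, the chaperone of the lactate carriers, rose by 0.72 (SE 0.14), or 0.58 corrected, and Slc2a3, a neuronal and leukocyte glucose carrier, was lower at -1.91 (-1.53 corrected) from levels of at most 3.45 CPM as a group mean. Of the 3 tested genes of fructose entry 1 rose and 1 fell, and corrected 1 rose and 0 fell. Khk, ketohexokinase, rose by 1.29 (SE 0.20), or 1.23 corrected, and Slc2a5, the apical fructose carrier, fell by 0.73 (-0.37 corrected, adjusted p 0.209).

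Among 8 tested other glycolytic isozymes, 3 rose and 3 fell, and corrected 2 rose and 2 fell. Aldoc, the brain-type aldolase, and Bpgm, bisphosphoglycerate mutase, rose by 1.80 (SE 0.28) and 0.83 (SE 0.13), or 2.01 and 0.73 corrected, and Hkdc1, a hexokinase relative, changed by -1.06, from 237 ± 58.0 to 83.1 ± 15.8 CPM in the 2'-FL arm. Hkdc1 was thus lower beside Hk1, with -0.56 in the corrected fit (adjusted p 0.0157). Among 5 tested genes that control the pace of glycolysis, 1 rose and 1 fell, corrected as well. Pfkfb4, an enzyme that makes an activator of phosphofructokinase, rose by 0.82 (SE 0.15), or 1.31 corrected, from 77.8 ± 7.05 to 185 ± 28.7 CPM in the control arm, and its relative Pfkfb2 changed by -0.53 (-0.47 corrected).

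Gluconeogenesis, the reverse route, had 3 of 8 genes higher and 1 lower, and corrected 1 higher and 2 lower. G6pc, glucose-6-phosphatase, rose by 0.92 (SE 0.19), or 0.83 corrected. Its change was 1.57 in the control arm (adjusted p 0.0059) and 0.28 in the 2'-FL arm (adjusted p 0.392), with an interaction of -1.28 (adjusted p 0.0381) that was -1.44 corrected (adjusted p 0.0753). Pck2, the mitochondrial phosphoenolpyruvate carboxykinase, changed by -0.94 (-0.49 corrected). Of 8 genes that control pyruvate dehydrogenase, 0 rose and 1 fell as tested, and corrected 1 rose and 0 fell. The gene that fell was Pdpr, the regulatory subunit of its phosphatase, at -1.01 (corrected -0.52, adjusted p 0.152). Of 7 pentose phosphate pathway genes 2 rose, Rpe at 0.83 (0.31 corrected) and Taldo1 at 0.47 (0.08 corrected), and corrected 1 rose. Of 11 regulators 3 rose and 1 fell, and corrected 4 rose and 1 fell. Mlx, the partner of the sugar-sensing factor ChREBP, and Tfam, which maintains mitochondrial DNA, rose by 0.96 (SE 0.13) and 0.58 (SE 0.14), or 0.78 and 0.80 corrected, and Ppargc1a, a coactivator of mitochondrial genes, changed by -0.93 (-0.61 corrected). The interaction for Mlx was 1.04 (adjusted p 0.0209), or 0.81 corrected (adjusted p 0.0928).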

How the data were processed

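Each deposited file holds 1 library with the authors' expected counts (estimated reads of each gene), not normalised, per the file headers and values. The mm10 build and DESeq are named, per the submitters' processing notes; the aligner, counting program, annotation and strand are not given in the sources used here. Between 11.2% and 15.4% of a library's entries were fractional (more than 0.01 from a whole number). The 36186 entries were summed per Entrez gene to 35791 genes and rounded.

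In R 4.3.3, edgeR 4.0.16 (filterByExpr by group, TMM) fitted 1 quasi-likelihood model of 4 group means to the 12 libraries (8 residual df, biological coefficient of variation 0.238). Adjusted p-values come from edgeR's two-sided test, adjusted by Benjamini and Hochberg over 13154 genes and called under 0.05. Standard errors (SE) of log2 fold changes were derived from the F statistic. CPM values use TMM-scaled library sizes, with SD over 3 libraries.

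The correction, chosen after the counts had been seen, fitted natural splines with 4 degrees of freedom on log2 transcript length and on GC content in each library and entered the fit as offsets. Lengths came from GENCODE M21 (the longest transcript with a curated RefSeq match), for 12654 of 13154 genes and all 33 members. The fit without the correction was tested on simulated counts with known changes. The correction was tested on simulated counts with a length trend and no changed gene, which cannot show whether it keeps real changes. Alternatives were RLE size factors, no filter on low counts, a replicate block, only the groups compared, DESeq2 1.42.0, the largest entry of a gene, and each library left out. The members, the other pathway lists and the marker lists were chosen with earlier results of these data known. Per-library values are given for members called between the Post groups or in the interaction, for up to 4 glycolysis and 4 other members with the smallest p in each arm, and always for Gapdh, Hk2, Pkm, Ldha, Cs and Ogdh, and for Tpi1, Pklr, Idh3b and Dlst, added after their values were seen. Of each other list, up to 3 genes with the smallest p over both arms are named where a role is described.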

Additional observations from a re-analysis of the deposited data

Results flagged for a closer look

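For 3 members the change after resection differed between the arms by the interaction test, in which the control arm's change is subtracted from the other's. Hk1 gave -1.90 on the log2 scale (adjusted p 0.0217), from -0.82 in the control arm and -2.72 in the 2'-FL arm, and its mean fell from 14.2 to 2.13 CPM in the 2'-FL arm. The corrected interaction for Hk1 was -1.17 (adjusted p 0.122), and without Post control 3 the value as tested was -1.46 (adjusted p 0.0779). Idh3a gave 0.87 (adjusted p 0.0314), from -0.21 and 0.66, and 0.53 corrected (adjusted p 0.179). Fh1 gave 0.87 (adjusted p 0.0287), from -0.02 and 0.85, and 0.78 corrected (adjusted p 0.0771). The calls of Idh3a and Fh1 were lost without any of several single libraries, 7 of 12 for Idh3a and 5 of 12 for Fh1. Among the named genes of the other pathway lists the same test passed for 7. The value was 1.29 for Sdhd (adjusted p 0.0208), 1.08 for Sdhb (adjusted p 0.0231), 1.09 for Mpc1 (adjusted p 0.0243), 1.68 for Mpc2 (adjusted p 0.0162) and 1.04 for Mlx (adjusted p 0.0209). It was -1.28 for G6pc (adjusted p 0.0381) and -2.67 for Pfkfb3 (adjusted p 0.0469), which like Pfkfb4 makes an activator of phosphofructokinase. In the corrected fit the interaction passed for none of these 7. These genes were not followed through the other alternatives. Groups of 3 are too small for a test of single outlying libraries.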

How the results depend on the processing

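Depth limits the scarce members most: Ldhb was counted 21 to 107 times per library and Hk1 6 to 149 times. Under the correction 2 members were called in the control arm, 6 in the 2'-FL arm, 10 over both arms and 0 in the interaction; with the replicate block and the correction together the counts were 2, 6, 9 and 0, with 6 between the Post groups. DESeq2 called 4 members in the control arm and 6 in the interaction, and the fit without a low-count filter called 1 in the interaction. Leaving out 1 library gave 0 to 2 calls in the control arm, 10 to 18 in the 2'-FL arm and 0 to 6 in the interaction; the 2'-FL arm's 10 came without Post 2'-FL 3, and the interaction's 0 without Post control 3 and 6 without Post 2'-FL 2. In the corrected fit the ranges were 1 to 2 in the control arm, 1 to 7 between the Post groups, with 1 without Post control 3 or Post 2'-FL 1, and 0 to 1 in the interaction, with 1 without Post 2'-FL 2.

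Among the values followed under every alternative, signs turned for Sucla2, called as tested, and for values short of the threshold. In the control arm Ogdh (-0.02) was 0.0079 with RLE factors, 0.24 corrected, 0.25 with block and correction, 0.00031 with only the groups compared, 0.0078 with DESeq2 and -0.17 to 0.16 without single libraries; Pkm was -0.27 to 0.0024 without single libraries. In the 2'-FL arm, corrected and then with the block too, Sucla2 was -0.12 and -0.10, Gapdh -0.20 and -0.22 (-0.14 to 0.47 without single libraries) and Pkm 0.0071 and 0.030. Between the Post groups, in the same order, Hk2 was 0.50 and 0.63 (-0.58 to 0.68 without single libraries) and Ldha -0.19 and -0.19 (-0.15 to 0.32). Without the highest member of each branch the glycolysis sums were 4990.3, 4197, 5869 and 4851 CPM and the citrate cycle sums 4107, 3608, 4686 and 4007 (Pre control and Pre 2'-FL, then Post control and Post 2'-FL), with a ratio of 1.16 in Pre 2'-FL. Apart from the correction's own construction, the cause was not tested.

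Whether equal library numbers mark paired samples could not be decided. Across genes, deviations of same-numbered Pre and Post libraries from their group means correlated at -0.10, 0.16 and 0.06 in the control arm. In the 2'-FL arm the values were -0.12, -0.06 and 0.22, and not every library correlated best with its own number. With 3 libraries in a group, deviations from the group mean depend on each other, so these values cannot settle the pairing. With the number as a replicate block, 1, 16, 17, 10, 0 and 3 members were called in the control arm, the 2'-FL arm, both arms, between the Post groups, between the Pre groups and in the interaction.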
